A study of Mus musculus with 6 samples.

Results

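Collagen chains are made in the endoplasmic reticulum (ER), where prolines and lysines are hydroxylated, some hydroxylysines are glycosylated, and the triple helix is handled by a dedicated chaperone before export. Podocytes, the epithelial cells that cover the glomerular capillaries, depend on this route because they build the type IV collagen of the glomerular basement membrane, the network that is defective in Alport syndrome (AS). Here, 10 genes of this machinery were followed out of the 57132 identifiers counted: P4ha1, P4ha2, P4ha3, P4hb, Plod1, Plod2, Plod3, Serpinh1, Colgalt1 and Bmp1. They were chosen by name, as collagen hydroxylases, a chaperone, a galactosyltransferase and a procollagen proteinase. All 10 were found once the identifier version was removed, and all 10 passed the filter on low counts.

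RNA was sequenced from 3 samples of immortalized wildtype podocytes (IMWT, Col4a3+/+, here WT) and 3 samples of immortalized Alport syndrome podocytes (IMAS, Col4a3-/-, here AS). Both lines came from adult male mice of 8 weeks, bred from Col4a3KO mice and mice that carry a temperature-sensitive large T antigen, so that this oncogene is common to both genotypes. Per the labels, the cells were grown at 33 °C in medium with 20 U/mL interferon gamma and differentiated for 14 days at 37 °C. Each genotype was 1 cell line, so that genotype and line cannot be told apart. Whether the replicates of a line were separate cultures is not stated, and p-values therefore measure the spread between these samples, which may be technical.

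The total count per sample lay between 45417221 and 54290968. Expression is given as CPM, the count scaled to library size after TMM normalisation, with means ± SD over n = 3 samples per genotype. AS was compared with WT by edgeR's two-sided quasi-likelihood test over the 16263 genes that passed the filter, with Benjamini-Hochberg adjustment and a threshold of 0.05, and fold changes are AS over WT. Col4a3, the gene knocked out in the AS line, went from 1087 ± 169.8 to 68.8 ± 12.2 CPM (log2 fold change -3.98, edgeR adjusted p = 1.31e-07). Among the podocyte markers, Tcf21 had 0 counts in every sample, Nphs1 (nephrin) was at or under 0.473 CPM, and Synpo (synaptopodin), which led the list, fell from 803 ± 44.2 to 526 ± 30.8 CPM (log2 fold change -0.61, edgeR adjusted p = 0.000144). The podocyte list summed to 922 to 1038 CPM in WT samples and to 623 to 683 CPM in AS samples. Of its 7 tested genes 5 were lower and 1 higher, where 19.6% of all genes tested were called lower and 20.4% higher. The parietal cell list summed to 642 to 672 against 503 to 533 CPM, the tubular list to 373 to 419 against 275 to 387 CPM, and the mesenchymal list, mostly Acta2, to 5747 to 7899 against 6416 to 7542 CPM. Within that list Pdgfrb fell from 253 ± 14.3 to 116 ± 0.362 CPM (log2 fold change -1.12, edgeR adjusted p = 8.71e-07) and Dcn rose from 0.538 ± 0.399 to 2.35 ± 0.725 CPM (log2 fold change 2.13, edgeR adjusted p = 0.00513). The endothelial list reached at most 1.35 CPM and the immune list at most 0.390 CPM in any sample. Mitochondrially encoded genes took 0.882 to 1.68% of the counts in WT samples, against 1.30 to 2.02% in AS samples. WT replicate 1 stood apart from the other WT samples, with a chi-square per degree of freedom of 43.0 and 45.2 against them, where they differed from each other by 9.06 and the AS samples by 17.1 to 20.6. Without it 6776 genes were called in place of 6517, and 3 of the collagen processing genes were again higher and 2 lower. The part of these differences in the results below was not tested, and in bulk RNA fewer cells of a type and less RNA per cell cannot be told apart.

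Among the 10 collagen processing genes, AS podocytes had 3 at a higher and 2 at a lower level than WT podocytes, and the other 5 did not pass the threshold. The collagen chaperone Serpinh1, the galactosyltransferase Colgalt1 and the lysyl hydroxylase Plod3 rose, to 1.43, 1.51 and 1.19 times the WT level. The lysyl hydroxylase Plod2 and the procollagen C-proteinase Bmp1 fell, to 0.689 and 0.815 times the WT level. Over all genes tested, 40.1% were called, 20.4% as higher and 19.6% as lower, so that 5 of 10 is near the share over all genes. The median log2 fold change of the 10 genes was 0.11, against 0.0061 over all genes tested. Their summed level was 3911 to 4155 CPM in WT samples and 4331 to 4384 CPM in AS samples. The 9 genes other than Serpinh1 summed to 2868 to 3028 CPM in WT samples and, lower in each, to 2782 to 2850.1 CPM in AS samples. This lower sum rests on Plod2, with a mean of 755 CPM in WT and 521 CPM in AS samples. The samples of the genotypes did not overlap for 7 of the 10, with 4 higher and 3 lower in AS podocytes, while this held for 52.3% of all genes tested (26.4% higher, 26.0% lower).

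**Figure D1:**
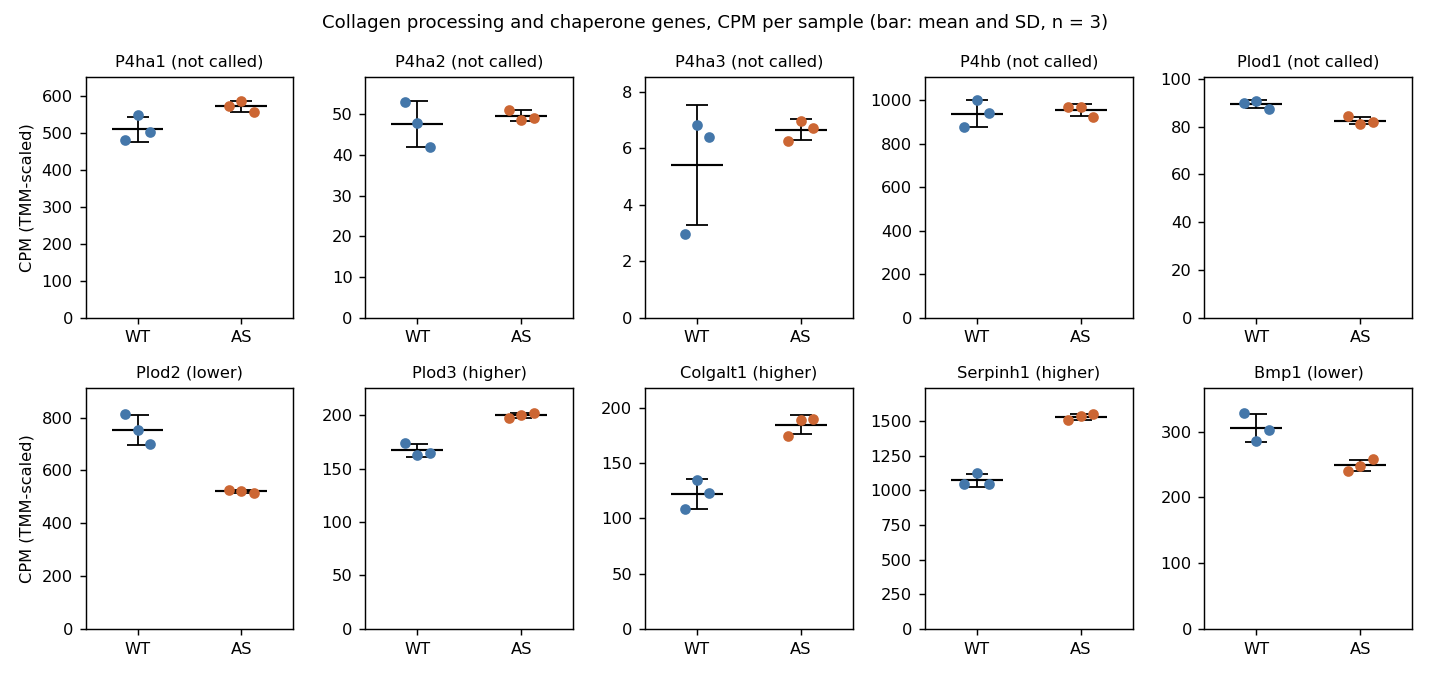
Each panel shows the CPM of 1 gene (vertical axis, from 0) in the 3 WT (blue) and the 3 AS samples (orange), with the mean and SD in black, and the title gives the call for AS over WT at an adjusted p under 0.05. Serpinh1, Colgalt1 and Plod3 lie higher and Plod2 and Bmp1 lower in each AS sample than in any WT sample, and P4ha2, P4ha3 and P4hb overlap.

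Serpinh1 (ENSMUSG00000070436.13, chromosome 7) encodes Hsp47, a chaperone that resides in the ER and binds procollagen triple helices. The WT samples gave 1045, 1128 and 1044 CPM, whereas the AS samples gave 1508, 1534 and 1549.7 CPM (replicates 1 to 3 of each, in that order). Every AS sample lay above every WT sample. The means were 1072 ± 47.95 CPM for WT and 1531 ± 21.03 CPM for AS (log2 fold change 0.51 with a standard error of 0.064, edgeR adjusted p = 0.000225). Dropping any 1 sample kept this value between 0.49 and 0.55. The 773 genes of chromosome 7 with a mean log2 CPM over 2 had a median log2 fold change of -0.011.

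Colgalt1 (ENSMUSG00000034807.10, chromosome 8) encodes an enzyme that adds galactose to hydroxylysine, the first sugar of the collagen glycans. In replicate order, Colgalt1 was measured at 108, 135 and 123 CPM for WT and at 175, 189 and 190.3 CPM for AS. The genotypes did not overlap, and the WT samples were the more spread (122 ± 13.4 CPM for WT, 185 ± 8.61 CPM for AS). The difference passed the threshold (log2 fold change 0.60 with a standard error of 0.081, edgeR adjusted p = 0.000388). Chromosome 8 as a whole was higher in AS podocytes, with a median log2 fold change of 0.32 over 611 genes, and Colgalt1 was at 0.27 once that median was subtracted. Colgalt1 shares 495 of its 4326 exon bases with Unc13a on the opposite strand, a gene with 909 counts over all 6 samples. Its paralog Colgalt2 had at most 4 counts in any sample and was not tested.

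Plod3 (ENSMUSG00000004846.11, chromosome 5) encodes a lysyl hydroxylase that also carries the glucosyltransferase activity which completes the sugar started by Colgalt1. Counts scaled to 174, 163 and 164 CPM across the WT replicates, compared with 197, 199.96 and 202 CPM across the AS replicates. The genotypes did not overlap (log2 fold change 0.26 with a standard error of 0.053, edgeR adjusted p = 0.00403). Chromosome 5 had a median log2 fold change of 0.20 over 685 genes, and Plod3 was at 0.054 after it was subtracted. Plod3 shares 529 of its 4519 exon bases with Znhit1 on the opposite strand. Znhit1 was itself higher in AS podocytes, at 23.3 CPM for WT and 30.3 CPM for AS (log2 fold change 0.38, edgeR adjusted p = 0.00399), and since counting by strand is not stated, reads of the shared stretch could belong to either gene. Znhit1 held 7949 counts over all 6 samples. How many reads of the shared stretch were counted for each gene was not tested.

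The promoters of the 3 genes that rose are shown for the motifs they hold. The 250 bases before the RefSeq start site are given 5′ to 3′ on the strand of the gene (GRCm38.p6), for Serpinh1 at chr7:99353240-99353489 (minus strand), for the upstream one of 2 starts of Colgalt1 at chr8:71610774-71611023 (plus strand) and for Plod3 at chr5:136986769-136987018 (plus strand). Capitals mark matches, on either strand, to a pair of heat shock units (GAANNTTC or TTCNNGAA) or to the hypoxia response core (ACGTG).
Serpinh1: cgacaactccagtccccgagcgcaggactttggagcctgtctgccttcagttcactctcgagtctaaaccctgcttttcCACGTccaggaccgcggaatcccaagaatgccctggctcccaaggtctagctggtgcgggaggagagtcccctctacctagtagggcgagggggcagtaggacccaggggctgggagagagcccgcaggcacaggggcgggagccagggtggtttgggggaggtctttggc
Colgalt1: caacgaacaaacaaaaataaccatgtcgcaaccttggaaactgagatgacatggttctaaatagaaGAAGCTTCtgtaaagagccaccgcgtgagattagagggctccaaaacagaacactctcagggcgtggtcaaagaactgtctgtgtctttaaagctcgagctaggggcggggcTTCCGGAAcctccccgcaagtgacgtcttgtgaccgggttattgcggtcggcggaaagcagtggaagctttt
Plod3: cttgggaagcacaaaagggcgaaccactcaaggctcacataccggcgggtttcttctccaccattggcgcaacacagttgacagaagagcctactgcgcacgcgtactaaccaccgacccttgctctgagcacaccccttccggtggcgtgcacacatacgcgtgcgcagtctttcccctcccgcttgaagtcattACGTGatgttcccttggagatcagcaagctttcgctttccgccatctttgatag
The hypoxia response core was found in Serpinh1, from 171 bases before the start, and in Plod3, from 54 bases before it, but not in this window of Colgalt1. Of 32851 promoters of the same length, 16.6% held it. The paired heat shock unit was found in Colgalt1, from 184 and 72 bases before the start, but not in the windows of Serpinh1 and Plod3, and 12.8% of promoters held it. The core was in 5 of the 8 collagen processing genes with an entry, of which P4ha1, P4ha2 and P4hb did not pass the threshold, and P4ha2 also held the paired heat shock unit. The ER stress element, in 0.113% of promoters, was found in none of the 8 collagen processing genes with an entry in the promoter table, which are all but Plod2 and Bmp1. A match is a run of letters, not a binding site.

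Plod2 (ENSMUSG00000032374.15, chromosome 9) encodes the lysyl hydroxylase known for modifying the telopeptides, the short ends of the chain where hydroxylysine-derived cross-links start. Plod2 stood at 813, 753 and 699.7 CPM across WT replicates 1 to 3, compared with 526, 521 and 515 CPM across AS replicates 1 to 3. The lowest WT sample was well above the highest AS sample, and the AS samples lay close together. The means were 755 ± 56.6 CPM for WT and 521 ± 5.53 CPM for AS (log2 fold change -0.54 with a standard error of 0.069, edgeR adjusted p = 0.000266). Dropping any 1 sample kept it between -0.59 and -0.48, and the median of chromosome 9 was -0.0016. Gm38391, on the opposite strand, overlaps 346 of the 5392 exon bases of Plod2 and held 879 counts in all.

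Plod1 (ENSMUSG00000019055.16, chromosome 4) encodes the lysyl hydroxylase that acts mainly on the triple-helical stretch. The WT samples gave 89.8, 90.9 and 87.5 CPM, whereas the AS samples gave 84.3, 81.2 and 82.1 CPM (replicates 1 to 3 of each, in that order). The genotypes did not overlap, but the difference did not pass the threshold (log2 fold change -0.12 with a standard error of 0.050, edgeR adjusted p = 0.0935). Chromosome 4 had a median of -0.16, and Plod1 was at 0.047 after it was subtracted, which turns its direction.

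The mix of the lysyl hydroxylases was read as shares. Per kb of exon, Plod2 made up 74.4, 73.8 and 72.5% of the 3 lysyl hydroxylases in WT replicates 1 to 3, but 63.5, 63.2 and 62.7% in AS replicates 1 to 3. Plod3 made up 19.01, 19.1 and 20.3% in WT replicates 1 to 3 and 28.4, 28.96 and 29.4% in AS replicates 1 to 3. Plod1 held the rest, 6.96% ± 0.356 for WT and 7.98% ± 0.129 for AS. None of these shares overlapped between the genotypes. The exact two-sided permutation test gave p = 0.10 for each, the smallest value that 3 against 3 samples allow. Adjusted over the 8 shares and ratios compared, it was 0.16. Shares of a family are bound to each other, and a lower Plod2 raises those of Plod1 and Plod3. The Plod1 share rose although Plod1 itself was lower in every AS sample. As Plod3 was higher and Plod1 and Plod2 lower in every AS sample, the Plod3 share could not overlap. Chromosome medians were not subtracted for the shares, and Plod3 by itself was at 0.054 when its median was.

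**Figure D2:**
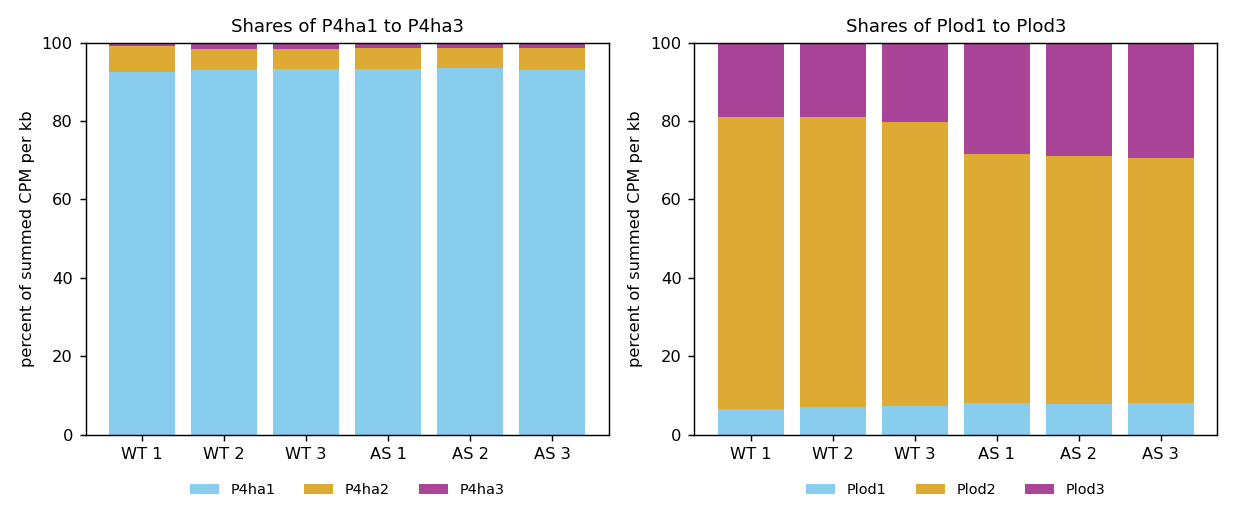
Stacked bars give, for each of the 6 samples, the percent of the summed CPM per kb held by P4ha1, P4ha2 and P4ha3 (left) and by Plod1, Plod2 and Plod3 (right). The Plod2 share is 72.5 to 74.4% in WT and 62.7 to 63.5% in AS samples, while P4ha1 holds 92.5 to 93.4% in all 6 samples.

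Collagen prolyl 4-hydroxylase makes the hydroxyproline that keeps the triple helix stable at body temperature, and it is built from a catalytic alpha subunit (P4ha1, P4ha2 or P4ha3) and a beta subunit, P4hb, which is the protein disulfide isomerase. None of the 4 genes passed the threshold in edgeR's test, although P4ha1 had an unadjusted p of 0.0321. P4ha1 (ENSMUSG00000019916.15, chromosome 10) is the main alpha subunit. In replicate order, P4ha1 was measured at 481, 548 and 503 CPM for WT and at 574, 587 and 558 CPM for AS. The lowest AS sample was above the highest WT sample (log2 fold change 0.17 with a standard error of 0.066, edgeR adjusted p = 0.0725). Without WT replicate 2 its log2 fold change was 0.22 and passed (edgeR adjusted p = 0.0375). Chromosome 10 was higher as a whole, with a median of 0.32 over 523 genes, and P4ha1 was at -0.16 once it was subtracted, which turns its direction.

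P4ha2 (ENSMUSG00000018906.15, chromosome 11) showed no separation of the genotypes. Counts scaled to 53.1, 47.7 and 41.8 CPM across the WT replicates, compared with 51.1, 48.6 and 49.2 CPM across the AS replicates. All AS samples lay inside the WT range (log2 fold change 0.061 with a standard error of 0.085, edgeR adjusted p = 0.607). A stretch of 229 bases of P4ha2 is 95.2% identical to Gm45528, so that some of its reads are uncertain. P4ha3 (ENSMUSG00000051048.18, chromosome 7) was the least abundant of the 10 genes, with 151 to 371 counts per sample where each of the others had at least 1930. P4ha3 stood at 2.98, 6.84 and 6.42 CPM across WT replicates 1 to 3, compared with 6.26, 6.98 and 6.74 CPM across AS replicates 1 to 3. WT replicate 1 stood apart, and the difference (log2 fold change 0.30 with a standard error of 0.26, edgeR adjusted p = 0.395) went to 0.0079 without it. P4hb (ENSMUSG00000025130.12, chromosome 11) was among the most abundant of the 10. The WT samples gave 877, 998 and 939 CPM, whereas the AS samples gave 969.9, 969 and 920.1 CPM (replicates 1 to 3 of each, in that order). The genotypes overlapped (log2 fold change 0.023 with a standard error of 0.069, edgeR adjusted p = 0.819).

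Within the alpha subunits, P4ha1 held 92.99% ± 0.422 of the CPM per kb for WT and 93.3% ± 0.168 for AS, and the shares of all 3 overlapped between the genotypes (exact permutation tests, p from 0.50 to 1). P4hb per kb was at 2.46 times the summed alpha subunits in WT and 2.23 times in AS podocytes. This ratio differed by -0.14 on the log2 scale, with no overlap between the samples (exact permutation test, p = 0.10, the smallest possible, and 0.16 after adjustment). Chromosome medians were not subtracted for this ratio, and P4ha1 by itself turned direction when its median was.

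Bmp1 (ENSMUSG00000022098.11, chromosome 14) acts late in secretion or outside the cell, where it cuts the C-propeptides off fibrillar procollagens. In replicate order, Bmp1 was measured at 328, 285 and 302 CPM for WT and at 240.4, 248 and 258 CPM for AS. The genotypes did not overlap (log2 fold change -0.29 with a standard error of 0.066, edgeR adjusted p = 0.00621), and dropping any 1 sample kept the difference between -0.34 and -0.24. The median of chromosome 14 was -0.026. Relative to Serpinh1, the level of Bmp1 per kb was 0.0783 for WT and 0.0447 for AS, a log2 difference of -0.81. The ratio did not overlap between the genotypes (exact permutation test, p = 0.10, the smallest possible, and 0.16 after adjustment). Serpinh1 was higher and Bmp1 lower in every AS sample than in any WT sample. The outcome for the ratio was thus fixed by the 2 genes and adds no separate result.

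**Figure D3:**
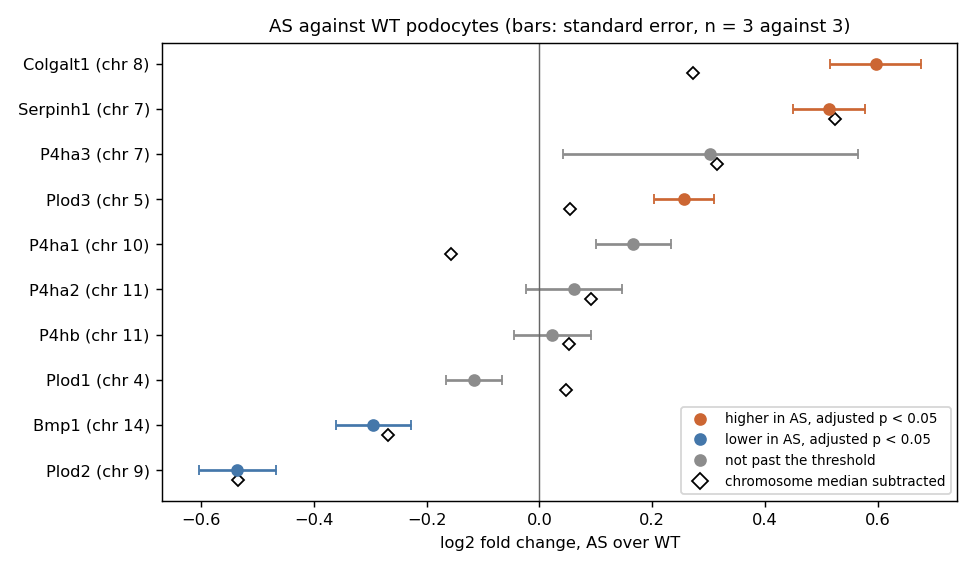
Filled circles give the log2 fold change of AS over WT with its standard error from edgeR (orange higher, blue lower, grey not past an adjusted p of 0.05), and open diamonds the value after the median of the gene's chromosome was subtracted, for which there is no test. Colgalt1 goes from 0.60 to 0.27 and Plod3 from 0.26 to 0.054, P4ha1 and Plod1 change sign, and Serpinh1 (0.52), Plod2 (-0.54) and Bmp1 (-0.27) stay close to their values.

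Levels of different genes were compared as CPM per kb of exon. Serpinh1 was the highest of the 10 in both genotypes, at 439 ± 19.6 for WT and 627 ± 8.61 for AS. Its rank was 49 for WT and 29 for AS among those of the 16263 tested genes that had an exon length. P4hb followed at 328 ± 21.2 and 333 ± 9.98. The WT order went on with Plod2 (140.03 ± 10.5), P4ha1 (124 ± 8.36), Plod3 (36.98 ± 1.32), Bmp1 (34.4 ± 2.42), Colgalt1 (28.3 ± 3.09), Plod1 (13.2 ± 0.251), P4ha2 (7.62 ± 0.902) and P4ha3 (1.73 ± 0.675). Samples of Plod2 and P4ha1 overlapped there, as did those of Plod3 and Bmp1. In AS podocytes P4ha1 (139 ± 3.45) stood above Plod2 (96.5 ± 1.03), and Colgalt1 (42.7 ± 1.99) stood above Bmp1 (28.03 ± 0.979), with no overlap in either pair, while Colgalt1 overlapped with Plod3 (44.2 ± 0.584). Plod1 (12.2 ± 0.237), P4ha2 (7.95 ± 0.215) and P4ha3 (2.13 ± 0.117) again came last. Places depend on the length used: with the longest transcript instead of all exons, Plod2 and P4ha1 overlapped in AS podocytes and not in WT.

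**Figure D4:**
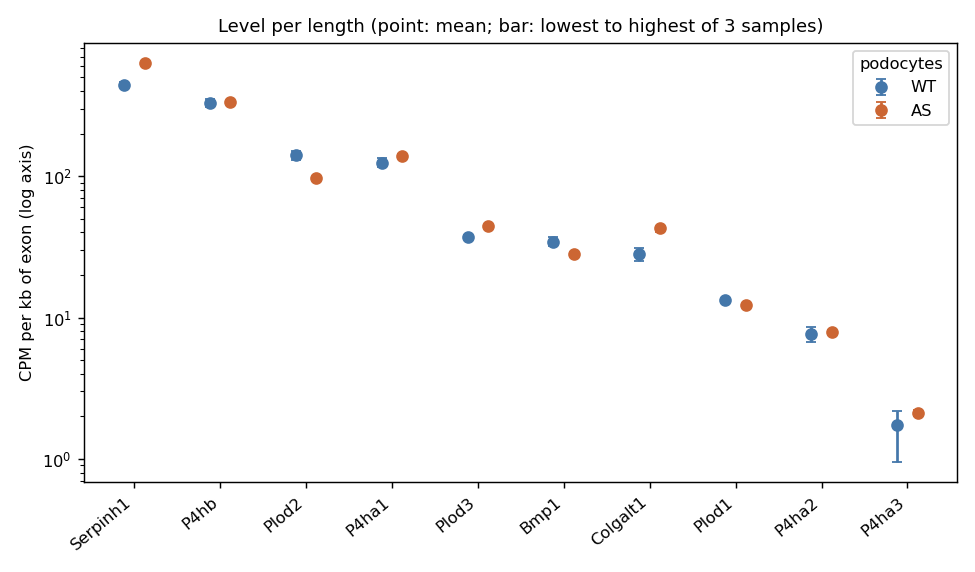
Points give the mean CPM per kb of exon (log axis) of each gene in WT (blue) and AS podocytes (orange), and bars the lowest and highest of the 3 samples, often smaller than the point. WT levels run from 439 (Serpinh1) to 1.73 (P4ha3). With this length, the means of Plod2 and P4ha1, whose WT samples overlap, and of Bmp1 and Colgalt1 stand in the opposite order in AS podocytes. With the longest transcript as length, Plod2 (142.1) stays above P4ha1 (141.8) in AS podocytes, and their samples overlap.

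The other partners of collagen modification in the ER were mixed. Of 9 genes for prolyl 3-hydroxylases, their partners, ER prolyl isomerases and an ER channel, 2 rose, 2 fell and 5 did not pass. Their median log2 fold change was -0.028. For this list and those below, the share over all genes tested was 40.1% called, 20.4% as higher and 19.6% as lower. Crtap, the scaffold of the prolyl 3-hydroxylase complex, rose from 93.9 ± 0.953 to 112 ± 0.379 CPM (log2 fold change 0.25, edgeR adjusted p = 0.00227). Its partners P3h1 (155 ± 2.87 CPM for WT, 152 ± 3.17 CPM for AS, edgeR adjusted p = 0.741) and Ppib (194 ± 5.03 and 190.2 ± 2.48 CPM, edgeR adjusted p = 0.707) did not pass. P3h3, known to work in a complex with Plod1, rose from 41.5 ± 4.14 to 52.1 ± 0.504 CPM (log2 fold change 0.33, edgeR adjusted p = 0.00758), and its partner P3h4 did not pass (log2 fold change -0.15, edgeR adjusted p = 0.0546). Fkbp14, an ER prolyl isomerase, fell from 71.3 ± 5.76 to 56.8 ± 0.731 CPM (log2 fold change -0.33, edgeR adjusted p = 0.00379), while Fkbp10, which assists Plod2, did not pass (log2 fold change -0.050, edgeR adjusted p = 0.568). Tmem38b, an ER channel, fell from 11.9 ± 0.836 to 9.02 ± 0.785 CPM (log2 fold change -0.40, edgeR adjusted p = 0.0165), but lost the threshold without WT replicate 2, WT replicate 3 or AS replicate 3 (edgeR adjusted p up to 0.0688). P3h2 did not pass (log2 fold change -0.010, edgeR adjusted p = 0.95). Subtracting the medians of their chromosomes put Fkbp14 at -0.13, Tmem38b at -0.24, P3h3 at 0.53 and P3h1 at 0.14, which turns the direction of P3h1.

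The extracellular step held Adamts2, the gene with the largest fold among these lists, those of the collagen chains included. Of 8 genes for other procollagen proteinases and their enhancers, with Colgalt2, 6 were tested, with a median log2 fold change of 0.79. Of these 6, 4 rose and 2 did not pass, where 20.4% of all genes tested were called higher. Pcolce speeds up the cutting by Bmp1. Counts scaled to 184, 194 and 187 CPM across the WT replicates, compared with 353, 341 and 368 CPM across the AS replicates. It thus rose where Bmp1 fell (log2 fold change 0.91 with a standard error of 0.057, edgeR adjusted p = 3.13e-06), and was at 0.71 after the median of chromosome 5 was subtracted. Pcolce2 rose from 1.13 ± 0.169 to 3.59 ± 0.745 CPM (log2 fold change 1.67, edgeR adjusted p = 0.000388). Adamts2, a procollagen N-proteinase, gave 0.178, 0.278 and 0.0433 CPM across the WT replicates and 11.5, 10.99 and 12.1 CPM across the AS replicates, from 9, 13 and 2 counts in the WT samples (log2 fold change 6.09 with a standard error of 0.31, edgeR adjusted p = 7.31e-07). Adamts14, a close relative, rose from 3.21 ± 0.447 to 5.10 ± 0.518 CPM (log2 fold change 0.67, edgeR adjusted p = 0.00924), and was at 0.35 after the median of chromosome 10 was subtracted. Tll1 is a Bmp1-like proteinase. Tll1 stood at 22.7, 50.8 and 50.2 CPM across WT replicates 1 to 3, compared with 30.7, 40.04 and 37.6 CPM across AS replicates 1 to 3. It did not pass (log2 fold change -0.19, edgeR adjusted p = 0.595), but without WT replicate 1 it was at -0.48 (edgeR adjusted p = 0.00225). Adamts3 did not pass (log2 fold change -0.35, edgeR adjusted p = 0.684), and Tll2 was too low to be tested.

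General ER chaperones and oxidoreductases fold secreted proteins of many kinds. Of 10 such genes, 1 rose, 2 fell and 7 did not pass, with a median log2 fold change of -0.066. Hsp90b1 rose from 748 ± 60.9 to 977 ± 39.1 CPM (log2 fold change 0.39, edgeR adjusted p = 0.00285), and was at 0.061 after the median of chromosome 10 was subtracted. Ero1a, the oxidase that recharges protein disulfide isomerases, fell from 102 ± 8.32 to 70.3 ± 5.99 CPM (log2 fold change -0.54, edgeR adjusted p = 0.000701). Sdf2l1 fell (log2 fold change -0.28, edgeR adjusted p = 0.0262), but lost the threshold without WT replicate 2, WT replicate 3, AS replicate 2 or AS replicate 3 (edgeR adjusted p up to 0.109). Of 11 genes for ER export, 3 rose, 5 fell and 3 did not pass, with a median of -0.18. Among all genes tested, 20.4% were called higher and 19.6% lower. Mia3, the receptor that loads procollagen into transport carriers, fell from 176 ± 1.87 to 149 ± 3.15 CPM (log2 fold change -0.24, edgeR adjusted p = 0.00434). Klhl12, an adaptor known to enlarge these carriers, fell as well (log2 fold change -0.31, edgeR adjusted p = 0.00527). The coat subunit Sec31a (log2 fold change 0.30, edgeR adjusted p = 0.00253) and the coat GTPase Sar1a (log2 fold change 0.29, edgeR adjusted p = 0.00383) rose, and after the medians of their chromosomes were subtracted Sec31a was at 0.093 and Sar1a at -0.032.

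Some of the collagen chains differed by larger folds than any of the 10 collagen processing genes. Of 8 fibrillar collagen genes, 3 rose, 2 fell and 3 did not pass. Col1a1 rose from 24.3 ± 4.15 to 477 ± 99.1 CPM (log2 fold change 4.29, edgeR adjusted p = 1.87e-07) and Col3a1 from 9.44 ± 1.58 to 198 ± 32.9 CPM (log2 fold change 4.39, edgeR adjusted p = 6.15e-08). Col1a2 fell from 30.6 ± 7.12 to 0.999 ± 0.299 CPM (log2 fold change -4.92, edgeR adjusted p = 5.14e-07) and Col5a2 from 2155 ± 485 to 239.8 ± 18.2 CPM (log2 fold change -3.17, edgeR adjusted p = 7.31e-07). The fibrillar list summed to 3746 to 4287 CPM in WT samples and to 2731 to 3270.2 CPM in AS samples, a difference that rests on Col5a2, since the other 7 genes summed to 1796 to 2147 CPM in WT samples and, higher in each, to 2479 to 3051 CPM in AS samples. The 6 type IV genes summed to 8141 to 10368 CPM in WT samples and to 7949.8 to 9103 CPM in AS samples. Of these, Col4a5 rose (log2 fold change 0.31, edgeR adjusted p = 0.00603), Col4a4 (log2 fold change -0.42, edgeR adjusted p = 0.0039) and Col4a6 (log2 fold change -0.36, edgeR adjusted p = 0.0463) fell with Col4a3, and the other 2 did not pass. The call of Col4a6 was lost by library size only, without a filter, with a replicate block, and without any 1 sample other than AS replicate 1 (edgeR adjusted p up to 0.15).

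**Figure D5:**
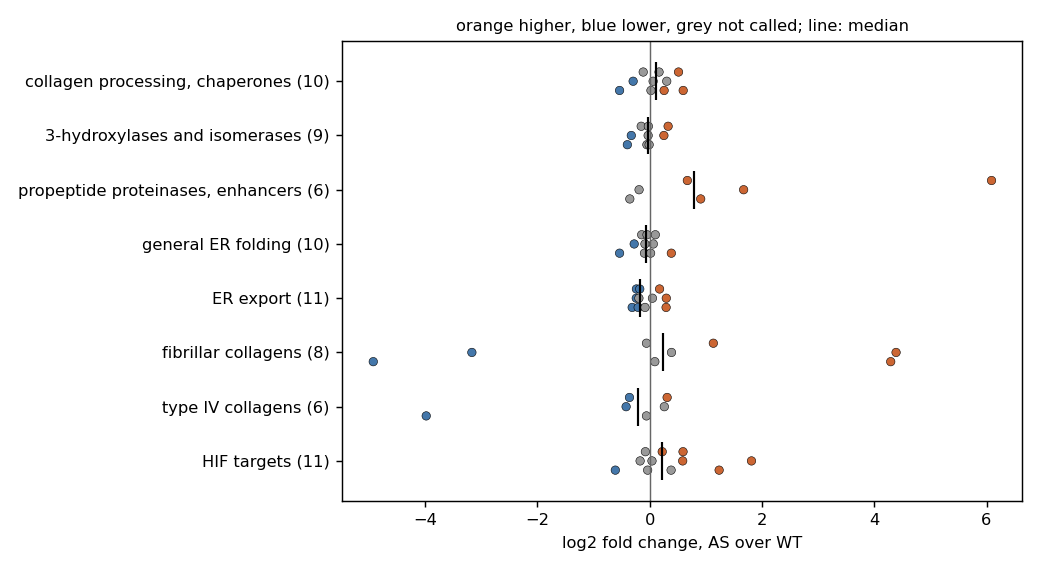
Each dot is the log2 fold change of 1 tested gene, AS over WT, in the list named at the left with its number of tested genes, and the black line is the median of the list. The 10 collagen processing genes lie between -0.54 and 0.60, whereas Adamts2 (6.09), Col3a1 (4.39), Col1a1 (4.29), Col1a2 (-4.92), Col4a3 (-3.98) and Col5a2 (-3.17) lie furthest from 0 among the lists plotted, which leave out the marker lists.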

How the data were processed

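The authors deposited raw counts, whole numbers of reads for every gene and sample, from mRNA libraries made with 15 cycles of PCR. The submitters' processing notes name FastQC, Trim Galore, STAR, edgeR and the build mm39, while the counting tool, annotation release and strand setting were not given in the sources used here. GENCODE M21 (GRCm38) matched 51880 of the 57132 identifiers without their version and gave symbol, chromosome and exon length. Promoters are from RefSeq (GRCm38.p6).

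Low genes were dropped with filterByExpr (count of at least 10, total of at least 15) and the rest tested in edgeR 4.0.16 (R 4.3.3) after TMM scaling, with a quasi-likelihood model of genotype alone. Its standard error was taken as the absolute log2 fold change over the square root of F. The scripts were tested on simulated data. Shares and ratios were compared by exact permutation over samples. Alternatives used limma 3.58.1 (voom, as in the study) and DESeq2 1.42.0. The 10 genes and all lists were chosen with earlier results of these data known. Named genes were the 10 genes, all genes of the prolyl 3-hydroxylase and proteinase lists, at most 4 genes of each other list by smallest adjusted p, Col4a3, markers at 0 counts or leading their list, and the 5 genes most correlated with Serpinh1. Nphs1, Pdgfrb, Dcn, the 5 HIF targets that did not pass, and the overlapping or similar Znhit1, Gm38391, Unc13a and Gm45528 were added after their values were seen. Replicates differed by more than sampling noise (chi-square per degree of freedom 9.06 to 45.2). A limit of 3 counts over a genotype, for counting error only, is 0.0209 CPM for WT and 0.0198 CPM for AS.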

Additional observations from a re-analysis of the deposited data

How the results depend on the processing

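The fit was repeated with DESeq2 size factors, with library size only, with DESeq2, limma-voom or a likelihood ratio test, without a filter, at a minimum mean CPM of 1, with a replicate block and without each sample. The 6517 calls became 5120 to 7066. Serpinh1, Colgalt1, Plod3, Plod2 and Bmp1 kept their direction and passed in 14 of 14 tested alternatives each. Same-numbered samples correlated at 0.147, 0.0939 and 0.0526 in their deviations from the group means, and differently numbered samples at -0.130 to 0.0571. Whether same-numbered samples share a batch is not stated and was not tested. With the replicate block 7066 genes were called and P4ha1 passed (log2 fold change 0.17, edgeR adjusted p = 0.0424). Without each sample, P4ha1 ran from 0.12 to 0.22, P4ha2 from -0.025 to 0.15, P4hb from -0.024 to 0.068, P3h2 from -0.10 to 0.11 and Adamts3 from -0.85 to 0.50. By library size only, P3h1 was at 0.0031 and P3h2 at 0.016. Subtracting chromosome medians put P4ha1 at -0.16, Plod1 at 0.047, Plod3 at 0.054, Colgalt1 at 0.27, Sar1a at -0.032, Sec31a at 0.093, Hsp90b1 at 0.061, Fkbp14 at -0.13, Adamts14 at 0.35, Tmem38b at -0.24, P3h3 at 0.53, P3h1 at 0.14, P3h2 at 0.051, Pcolce at 0.71 and Slc2a1 at -0.45. With the longest transcript as length, Plod2 took place 3, P4ha1 place 4, Bmp1 place 6 and Colgalt1 place 7 by the mean over all 6 samples, against places 4, 3, 7 and 6 with all exons. The cause of these moves was not tested. At 9, 13 and 2 counts, depth limits the WT level of Adamts2.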

Other observations

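P4ha1, P4ha2 and Plod2 are known targets of the hypoxia-inducible factors (HIF), and 12 other known HIF targets were read in the same fit. Of the 11 tested, 5 rose, 1 fell and 5 did not pass in AS podocytes, with a median log2 fold change of 0.22 against 0.0061 over all genes tested. Over all genes tested, 40.1% were called, 20.4% as higher and 19.6% as lower. Adm, a vasodilator peptide, rose from 5.46 ± 1.85 to 19.2 ± 2.48 CPM (n = 3 per genotype, log2 fold change 1.81, edgeR adjusted p = 0.000176), and the kinase Pdk1 (log2 fold change 0.59, edgeR adjusted p = 0.000619) and Ndrg1 (log2 fold change 0.59, edgeR adjusted p = 0.00858) rose too. Ndrg1 was at 0.38 after the median of chromosome 15 was subtracted. The glucose transporter Slc2a1 fell from 70.6 ± 3.45 to 46.2 ± 4.32 CPM (log2 fold change -0.61, edgeR adjusted p = 0.000238). Those that did not pass were Vegfa (log2 fold change -0.17), Pgk1 (-0.077), Ldha (-0.037), Bnip3 (0.041) and Egln3 (0.38). Whether HIF activity differed between the lines was not tested.

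Over the 6 samples, the genes whose log2 CPM ran most like that of Serpinh1, among 9155 with a mean CPM of at least 10, were Mfhas1, Calhm2, Prmt2, Slc3a2 and Itga5, with a Pearson r of at least 0.998. The samples share 2 genotypes, and 10.2% of those genes had an r over 0.95, so that this only describes these samples.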
